A study of Mus musculus with 34 samples.

Results

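The genes of the fibroblast growth factor (FGF) pathway were followed across 34 mouse CpG island arrays: the FGF ligands, their receptors, the feedback inhibitors of the Sprouty, Spred and Dusp families, and the Etv transcription factors. The rule takes members by gene name and uses no measured value. A probe was taken when its gene name in the scanner files was an Fgf gene, Fgfr1 to Fgfr4, Fgfrl1, a Spry, a Spred, Dusp4 to Dusp7, Etv1, Etv4 or Etv5 and when it lay on an autosome, and probes with gaps of at most 500 bases were joined into islands of at least 3 probes. This gave 41 islands of 32 genes. Of these, 40 could be scored on every array, out of 13614 scored islands in all. They comprise 18 islands of ligands, 5 of receptors, 14 of inhibitors and 3 of Etv factors. Fgf11 and Fgf12, of an intracellular subfamily, are counted with the ligands. The island at the start of Fgf8 has only 2 probes on the smaller array grid and was left without a score. Of 45 islands with a matching probe, 2 were X-linked (Fgf13 and Fgf16), and 2 others (at Fgf22 and beside Fgf11) had fewer than 3 matching probes and were not counted.

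DNA methylation was measured by methylated DNA immunoprecipitation (mDIP), in which an antibody to methylated cytosine pulls down fragments that are compared with the input DNA on the array. The question was how CpG islands in embryonic stem (ES) cells, before and after differentiation in culture, compare with those of normal tissue. The arrays hold 16 samples of adult tissue from mice of 3 months and both sexes (colon, pancreas, brain, kidney, liver, lung, muscle and spleen, 2 arrays each), 5 of embryos taken at 8.5, 9.5, 10.5, 11.5 and 12.5 days, 3 of undifferentiated ES cells (the lines EB5, J1 and TT2), 5 of ES cells after differentiation in culture, 2 of teratomas, and single arrays of purified β cells, the β cell line Min6 and the α cell line αTC. The differentiated group pools several protocols: embryoid bodies and retinoic acid treated cells, which the labels derive from TT2 (the methods name J1 for retinoic acid), and 2 endoderm arrays and 1 mesoderm array derived from EB5. By the methods, endoderm and mesoderm were sorted by reporter genes from a single targeted line after Activin A, and teratomas were grown under the skin of NOD-SCID mice, whose own cells are not separated from the tumour. The labels name J1 as the line behind both teratomas, whereas the methods name other ES lines. The purified β cells came, by the methods, from islets of transgenic mice with a Pdx1-GFP construct and were sorted with an antibody to insulin. The tissue DNA was from C57Bl/6 mice. The labels do not say whether arrays of one tissue and sex came from separate animals, so the p-values measure the spread between these arrays, part of which may be technical. By their labels the 5 differentiated arrays come from only 2 parent lines, and the tests have no term for the line. Their p-values therefore do not measure the spread between ES cell lines. Each probe's log ratio of bound over input DNA was turned into a Z-score within its array, and these scores were averaged over the probes of an island to give its island methylation score (IMS). An IMS is relative to the other probes of the array and is no percentage of methylation. An IMS below 0 on every adult array was taken as constitutively unmethylated and an IMS above 0.75 as methylated.

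Most FGF ligands are secreted proteins that bind receptor tyrosine kinases together with heparan sulfate and signal mainly through Ras and the ERK kinases. The pathway is known for the exit of ES cells from the undifferentiated state, for mesoderm formation at gastrulation and for the budding of many organs. Its own output limits it: Sprouty and Spred proteins act on the Ras to Raf step, Dusp phosphatases remove phosphate from MAP kinases, and the Etv factors are induced transcription factors of the ETS family.

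Promoter sequence was taken for the genes on which the results turn. Of the 32 member genes, 24 were found by symbol in a RefSeq promoter table of build GRCm38.p6, with 30 start sites. Those not matched were Fgf8, Fgf15, Fgf17, Fgf20, Fgfr1, Dusp4, Spry4 and Etv4. The 250 bases before the start are printed on the strand of the gene, 5′ to 3′, with each CpG, the dinucleotide CG that is the substrate of methylation and reads the same on both strands, in capitals. They are shown for Fgf2, which was higher in differentiated ES cells than in adult tissue, for Fgf3, Fgf4 and Fgf11, which were high in Min6, and for Dusp6, which was below 0 on all arrays. The positions of the array probes below are those of the files, whose build is not named, and cannot be set against these coordinates.
Fgf2 (chr3:37348403-37348652, plus strand): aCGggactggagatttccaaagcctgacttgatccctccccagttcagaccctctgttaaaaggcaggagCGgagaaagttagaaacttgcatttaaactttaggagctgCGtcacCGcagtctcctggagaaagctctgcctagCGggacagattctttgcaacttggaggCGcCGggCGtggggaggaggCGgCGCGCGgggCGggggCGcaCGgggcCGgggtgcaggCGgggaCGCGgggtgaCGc
Fgf3 (chr7:144838362-144838611, plus strand): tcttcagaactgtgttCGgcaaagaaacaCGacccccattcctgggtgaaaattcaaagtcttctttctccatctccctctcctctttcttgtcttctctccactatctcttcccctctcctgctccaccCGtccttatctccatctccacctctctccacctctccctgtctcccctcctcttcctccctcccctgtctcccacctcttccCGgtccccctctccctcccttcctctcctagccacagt
Fgf4 (chr7:144861136-144861385, plus strand): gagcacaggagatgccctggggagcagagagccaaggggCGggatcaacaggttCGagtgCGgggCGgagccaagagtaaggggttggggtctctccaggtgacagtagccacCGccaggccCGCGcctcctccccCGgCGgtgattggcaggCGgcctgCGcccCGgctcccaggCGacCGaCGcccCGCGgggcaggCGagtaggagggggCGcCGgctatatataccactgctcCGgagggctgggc
Fgf11 (chr11:69802281-69802530, minus strand): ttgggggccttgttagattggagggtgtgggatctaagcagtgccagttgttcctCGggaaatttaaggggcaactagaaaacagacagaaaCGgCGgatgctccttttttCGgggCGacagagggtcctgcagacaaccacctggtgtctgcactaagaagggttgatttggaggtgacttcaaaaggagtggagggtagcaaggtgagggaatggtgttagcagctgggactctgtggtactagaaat
Dusp6 (chr10:99262981-99263230, plus strand): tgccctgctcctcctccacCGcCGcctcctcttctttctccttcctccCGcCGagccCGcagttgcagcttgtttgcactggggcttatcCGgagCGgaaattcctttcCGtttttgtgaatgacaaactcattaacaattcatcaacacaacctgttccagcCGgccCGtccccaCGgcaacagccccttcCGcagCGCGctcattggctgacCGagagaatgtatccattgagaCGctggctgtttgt

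These windows held 20 CpGs in Fgf2, 21 in Fgf4 and 16 in Dusp6, but 4 in Fgf3 and 5 in Fgf11. Over all 32851 promoters of the table the median was 6 CpGs and 92.1% held at least 1. The share of promoters with at least as many was 17.9% for Fgf2, 16.3% for Fgf4, 25.4% for Dusp6, 62.2% for Fgf3 and 55.6% for Fgf11. Over the 30 member windows the median was 19.5 CpGs, from 1 to 37. Members were taken from a CpG island array, so a count above that of all promoters cannot be read as particular to them.

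The arrays lay on 23 slides scanned on 16 days, and 5 slides held arrays of more than 1 group. The array of the J1 line stood apart. Over all islands its IMS correlated at 0.793 with EB5 and 0.799 with TT2, whereas EB5 and TT2 correlated at 0.881, and at 0.858 to 0.965 with the adult arrays, whereas EB5 and TT2 reached at most 0.83. The array that correlated best with J1 was the second pancreas array, and the cause was not tested. The scanner values of J1 correlated at 0.113 with its own column in the deposited table, against 0.894 to 0.991 for the other arrays. The calls that rest on undifferentiated cells are therefore given with and without J1. Among adult arrays, 3 of 16 were closest to the other array of their own tissue.

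In adult tissue most islands of the pathway were low. Of the 40 islands, 11 (27.5%) were below 0 on every adult array, against 29.8% of all islands, and the median adult IMS was -0.24 against -0.21 for all. Those 11 belonged to the ligands Fgf2, Fgf3, Fgf5, Fgf9 (gene body), Fgf11, Fgf18 (start) and Fgf20, the receptor Fgfr2, the inhibitors Dusp6 and Spred2 (start), and Etv1. The lowest adult mean was that of Etv1, at -0.69 ± 0.36 (SD, n = 16). The Dusp6 island, which lies over the start of a phosphatase that acts on ERK, followed at -0.56 ± 0.17. On all 34 arrays 4 islands (10%, against 15.5% of all islands) stayed below 0, namely Fgf9 (gene body), Fgfr2, Dusp6 and Etv1.

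The islands with a high adult mean lay within genes. The 20 islands over a transcription start had adult means between -0.56 and 0.27. The 13 islands that began within a gene reached up to 3.43, and 3 of them were above 0.75, while none of the 20 start islands and none of the 6 upstream islands was. Over all islands, grouped in the same way, the shares above 0.75 were 32.8% within genes, 2.51% over starts and 9.02% upstream. The highest was the island deep within Spred2 (chromosome 11, 19920636 to 19921352 in the files), 96218 bases from the start, with an adult mean of 3.43 ± 0.40, whereas the island over the start of Spred2 had -0.23 ± 0.12. Spred3, measured 6765 bases within the gene (chromosome 7, 28870168 to 28870664), had 2.66 ± 0.30. These 2 islands were the ones above 0.75 on every adult array (5%, against 7.37% of all islands). The gene-body island of Fgf17, 5150 bases from the start (chromosome 14, 69371774 to 69372225), followed at 1.62 ± 0.48 and ranged from 0.71 to 2.27.

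**Figure D1:**
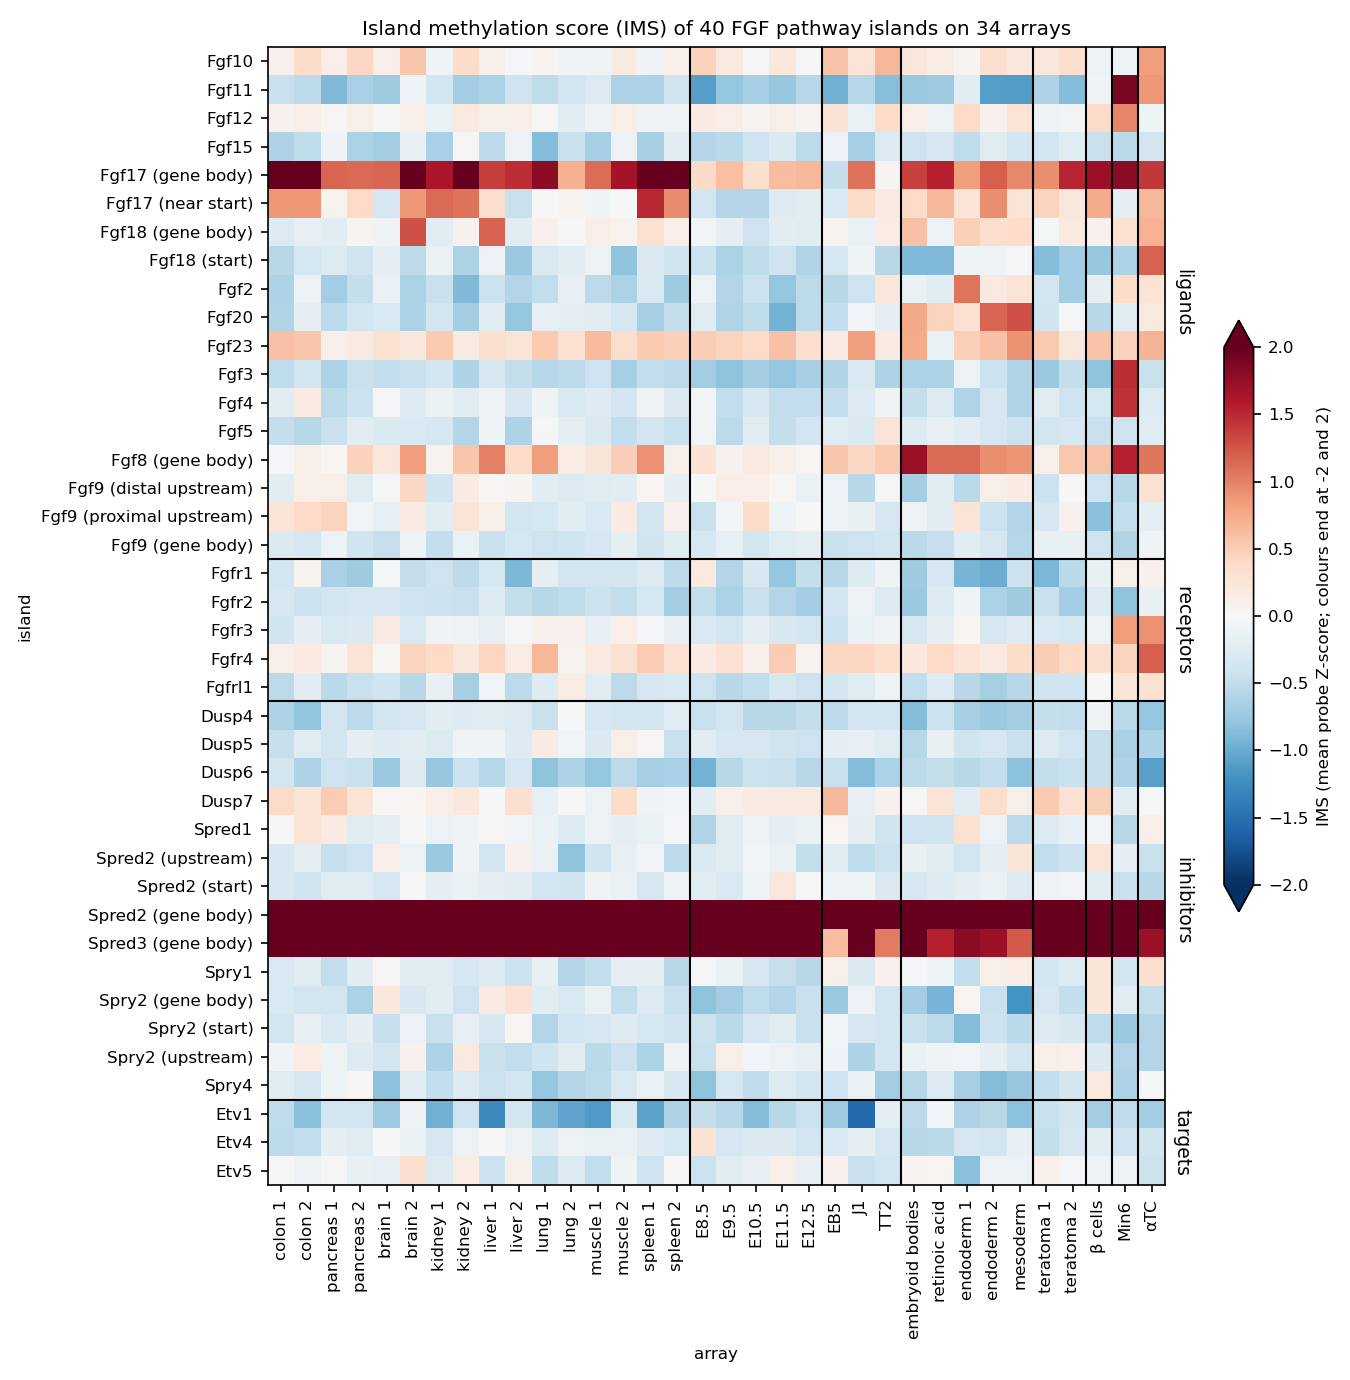
Heat map of the IMS (mean probe Z-score, colour) of the 40 islands (rows, grouped by role) on the 34 arrays (columns, grouped by sample type). Most rows are pale or blue in all columns, the gene-body islands of Spred2 and Spred3 are dark red in adult tissue, Fgf20 and Fgf8 are red in the 5 differentiated ES cell arrays, and Fgf3, Fgf4 and Fgf11 are dark red in Min6.

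Differentiated ES cells were compared with adult tissue with limma over all islands, fitted together with embryos and undifferentiated ES cells. Of the 40 islands 7 (17.5%) differed at an adjusted p under 0.05, against 23.2% of all islands. All 3 that were higher in the differentiated cells were ligands. They made up 16.7% of the 18 ligand islands, close to the 14.4% of all islands that were higher. All 4 that were lower were inhibitors, 28.6% of the 14 inhibitor islands (8.73% of all islands were lower). Those 4 include separate islands of the same gene, Spry2, over its start and within the gene. Whether the calls depend on the role was not tested. None of the 5 receptor islands and none of the 3 Etv islands passed the test. The median difference over the 40 islands was -0.04, and over all islands -0.01. By role it was 0.05 for ligands, -0.11 for receptors, -0.18 for inhibitors and -0.05 for Etv factors.

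Fgf20, a ligand known for its part in the inner ear and in kidney progenitors, had the largest difference of the 40 islands. Its 3 probes lie 88 to 288 bases after the start (chromosome 8, 41785214 to 41785458). The IMS was 0.75 in embryoid bodies, 0.44 in retinoic acid treated cells, 0.30 and 1.17 in endoderm and 1.29 in mesoderm. The adult arrays had a lowest value of -0.78, a median of -0.38 and a highest value of -0.16. Every differentiated array was thus above every adult array, which held for 1 of the 40 islands (2.5%) and for 2.51% of all islands. The means were 0.79 ± 0.44 (SD, n = 5) and -0.42 ± 0.21 (SD, n = 16), a difference of 1.21 ± 0.13 (SE, limma adjusted p = 8.8e-08). All 3 probes were higher, with means of 0.81, 1.05 and 0.51 in differentiated cells against -0.30, -0.30 and -0.66 in adult tissue. The DNA of each sample was pooled over its cells, so more methylated cells and more methylation per cell cannot be told apart here or below.

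Fgf8, which patterns the gastrula, the limb and the midbrain border, was measured within the gene, 5537 bases from its start (chromosome 19, 45790223 to 45790669). Its IMS was 1.72 in embryoid bodies, 1.13 in retinoic acid treated cells, 1.14 and 0.93 in endoderm and 0.89 in mesoderm. Adult arrays ran from -0.02 through a median of 0.31 to 1.01. All 5 differentiated arrays were above 0.75, and 2 of them overlapped the highest adult arrays. The difference was 0.76 ± 0.15 (limma adjusted p = 3.2e-04). Blocking on the slide gave 0.89 with an adjusted p of 0.086.

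Fgf2, or basic FGF, is the ligand most used in stem cell culture media, and its island begins 15 bases after the start given in the files. The IMS was 1.07 and 0.20 in endoderm, 0.27 in mesoderm, -0.14 in embryoid bodies and -0.22 after retinoic acid. The adult arrays had a lowest value of -0.88, a median of -0.51 and a highest value of -0.12. The 3 arrays derived from EB5 were above every adult array, whereas the 2 derived from TT2 lay at the upper end of the adult range. The difference was 0.73 ± 0.15 (limma adjusted p = 6.5e-04), and the mean of 0.24 ± 0.51 in differentiated cells stayed under 0.75.

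The other 15 islands of ligands did not pass the test. Among them, Fgf5, a ligand of the early epiblast, differed by 0.07, Fgf15 by 0.06 and Fgf3 by 0.01. Fgf4, the ligand that ES cells make themselves, had -0.22 ± 0.17 in adult tissue and differed by -0.24 ± 0.09.

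The receptors had adult means of -0.41 ± 0.24 for Fgfr1, -0.43 ± 0.10 for Fgfr2, -0.11 ± 0.17 for Fgfr3, 0.27 ± 0.18 for Fgfr4 and -0.35 ± 0.22 for Fgfrl1, a receptor without a kinase domain. In that order the differences of differentiated ES cells from adult tissue were -0.28 ± 0.14, -0.05 ± 0.08, -0.11 ± 0.09, 0.01 ± 0.09 and -0.15 ± 0.10 (SE, limma adjusted p = 0.15, 0.69, 0.40, 0.93 and 0.26). The groups overlapped at all 5. Fgfr1 had the largest difference among them.

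Among the inhibitors, Spred3 had the largest difference. Its IMS was 2.13 in embryoid bodies, 1.55 in retinoic acid treated cells, 1.80 and 1.71 in endoderm and 1.22 in mesoderm. The adult arrays had a lowest value of 2.07, a median of 2.61 and a highest value of 3.19. Only embryoid bodies reached the adult range. The difference was -0.98 ± 0.24 (limma adjusted p = 0.0028), with every array of both groups above 0.75. Blocking on the slide gave -0.54 (adjusted p = 0.12), and blocking on the scan day -0.56 (adjusted p = 0.39).

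Dusp4, a nuclear phosphatase of MAP kinases, has the longest island of the 40, with 25 probes over its start (chromosome 8, 36275183 to 36278311). The IMS was -0.86 in embryoid bodies, -0.43 in retinoic acid treated cells, -0.66 and -0.74 in endoderm and -0.68 in mesoderm. Adult arrays ran from -0.79 through a median of -0.35 to 0.01, so 4 of the 5 differentiated arrays lay within the adult range and embryoid bodies below it. The difference was -0.31 ± 0.09 (limma adjusted p = 0.0084), and the mean of every group was below 0.

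Spry2, a Sprouty that restrains Ras signalling, passed the test at 2 of its 3 islands, on values that overlapped between the groups. Within the gene the IMS was -0.69 in embryoid bodies, -0.93 in retinoic acid treated cells, 0.04 and -0.45 in endoderm and -1.19 in mesoderm, against -0.64 to 0.29 with a median of -0.30 in adult tissue. The difference was -0.40 ± 0.15 (limma adjusted p = 0.046), and the call was lost without the embryoid body array (-0.39), the second endoderm array (-0.45), the mesoderm array (-0.27) or the retinoic acid array (-0.33). Over the start the IMS was -0.45, -0.53, -0.86, -0.43 and -0.54 on the same 5 arrays, against -0.58 to 0.02 with a median of -0.33. The difference there was -0.26 ± 0.08 (limma adjusted p = 0.022), and the call was lost without the first endoderm array (-0.18). Neither Spry2 island passed when slide or scan day was blocked, and normexp background correction moved the start island to 0.03.

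Of the other 10 inhibitor islands the gene-body island of Spred2 differed by -0.48 ± 0.20 (limma adjusted p = 0.08) from an adult mean of 3.43, and Dusp6 differed by -0.01 ± 0.09. The Etv islands differed by 0.17, -0.17 and -0.05 for Etv1, Etv4 and Etv5. Without the retinoic acid array 11 islands passed, 4 higher and 7 lower. The share of all islands that passed in that fit was not set beside this count, so the rise cannot be read as particular to these islands. The islands then added were Fgf23, higher, and Fgf4, Dusp5, Spry4 and the gene-body island of Spred2, lower.

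**Figure D2:**
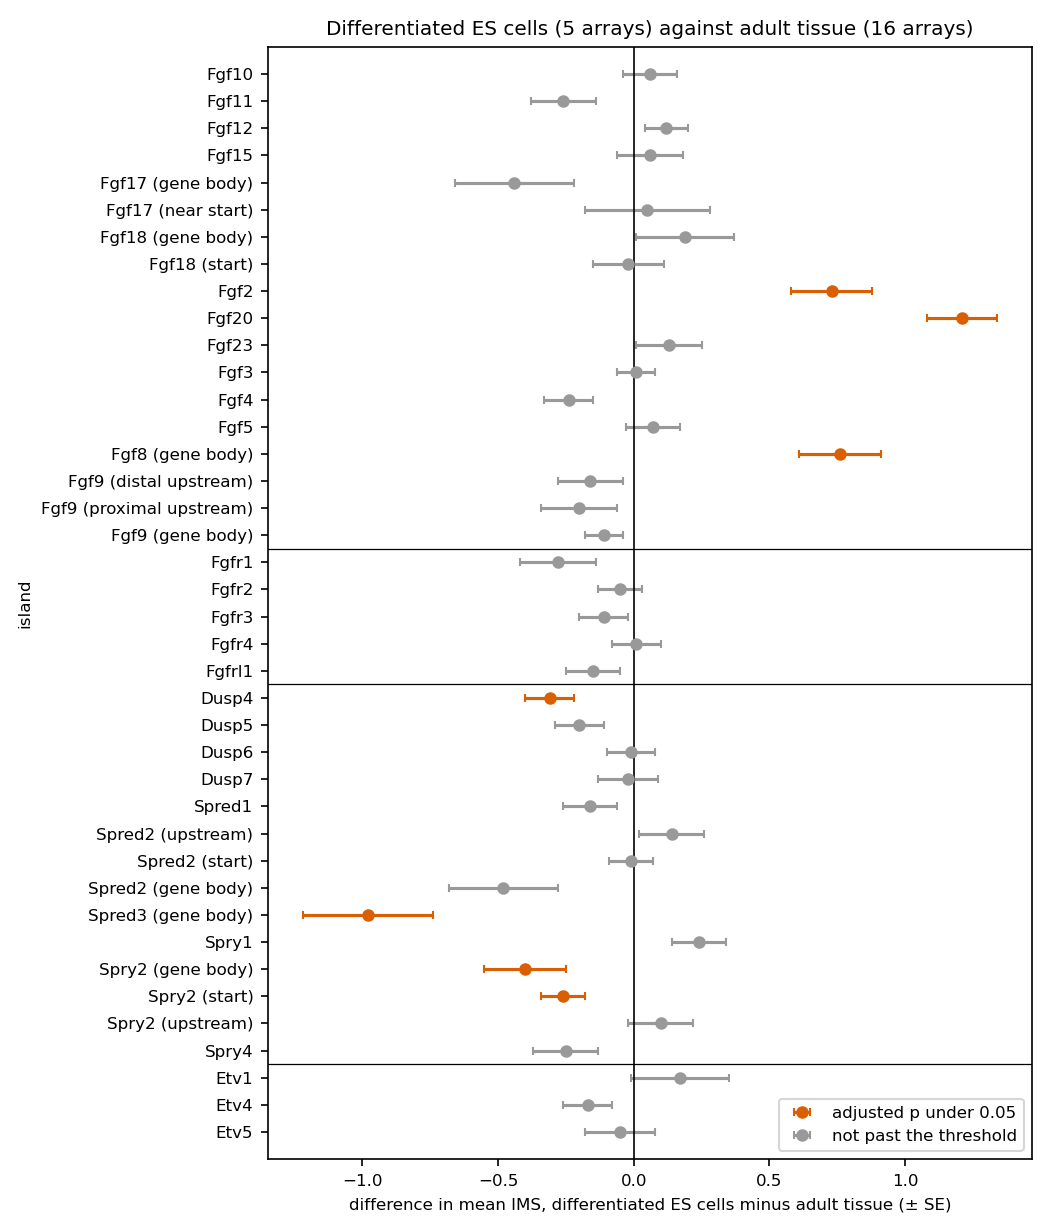
Difference in mean IMS between differentiated ES cells (5 arrays) and adult tissue (16 arrays) for each of the 40 islands, with bars of ± 1 standard error from limma and orange points for an adjusted p under 0.05. The 3 orange ligand islands (Fgf20, Fgf8 and Fgf2) lie to the right of 0 and the 4 orange inhibitor islands (Spred3, Dusp4 and both Spry2 islands) to its left, while the 5 receptors and the 3 Etv factors are grey.

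On 2 slides an adult array lay beside one of differentiated cells. For the second endoderm array against the first pancreas array the difference was 1.70 for Fgf20, 0.89 for Fgf8, 0.90 for Fgf2, -0.81 for Spred3 and -0.35 for Dusp4. For embryoid bodies against the second brain array it was 1.37, 0.89, 0.49, -0.27 and -0.52 in the same order. All 5 islands had the direction of the pooled difference on both slides. Blocking on the slide left 4 islands past the threshold, 3 higher (Fgf20, Fgf2 and Fgf23) and 1 lower (Dusp4). The share of all islands that passed in that fit was not set beside this count. Of the 7 islands past the threshold in the main fit, Fgf20, Fgf8, Fgf2 and Dusp4 passed when the scan day was blocked.

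Undifferentiated ES cells differed from adult tissue at 1 of the 40 islands (2.5%, against 2.30% of all islands, with 1.31% lower), the gene-body island of Fgf17, a ligand of the Fgf8 subfamily that acts in the midbrain and cerebellum. Its IMS was -0.48 in EB5, 1.08 in J1 and 0.05 in TT2, and in adult tissue it had a lowest value of 0.71, a median of 1.66 and a highest value of 2.27. EB5 and TT2 lay below every adult array, whereas J1 lay within their range. The difference was -1.41 ± 0.27 (limma adjusted p = 0.0074). The call was lost without EB5 (-1.06, adjusted p = 0.32) or TT2 (-1.33, adjusted p = 0.22), and when the scan day was blocked (-0.89, adjusted p = 0.98).

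Without J1, 3 islands passed (7.5%, against 8.45% of all islands, with 4.58% higher and 3.87% lower). Fgf17 differed by -1.84 ± 0.29 (limma adjusted p = 5.1e-05). Spred3 was 0.61 in EB5 and 1.04 in TT2, below every adult array, a difference of -1.83 ± 0.22 (limma adjusted p = 7.2e-07). J1 had 3.20, above every adult array, and with it the difference was -1.04 ± 0.29 (limma adjusted p = 0.051). Fgf10, the ligand of lung and limb budding, was 0.57 and 0.66, above the highest adult value of 0.55, a difference of 0.48 ± 0.14 (limma adjusted p = 0.026), against 0.37 ± 0.12 with J1 (limma adjusted p = 0.092). On the slide that EB5 shared with the second pancreas array the difference was -1.62 for Fgf17, -2.59 for Spred3 and 0.15 for Fgf10.

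Between differentiated and undifferentiated ES cells 1 of the 40 islands passed (2.5%, against 5.43% of all islands, with 3.51% higher and 1.92% lower). It was Fgf20, with -0.50 in EB5, -0.05 in J1 and -0.20 in TT2, all below the 5 differentiated arrays. The difference was 1.04 ± 0.19 (limma adjusted p = 0.0014). It missed the threshold when these groups alone were fitted (adjusted p = 0.13) and in the methods' t-test (adjusted p = 0.28). Without J1, 3 islands passed (7.5%, against 3.58% of all islands, with 2.66% higher), all higher after differentiation: Fgf20 by 1.14 ± 0.22 (limma adjusted p = 0.0024), the gene-body island of Fgf17 by 1.40 ± 0.32 (limma adjusted p = 0.013) and Spred3 by 0.85 ± 0.24 (limma adjusted p = 0.046). With J1 the difference was 0.97 ± 0.31 for Fgf17 (limma adjusted p = 0.063) and 0.06 ± 0.34 for Spred3 (limma adjusted p = 0.94). This comparison shares its differentiated arrays with the one against adult tissue and its undifferentiated arrays with the preceding one.

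**Figure D3:**
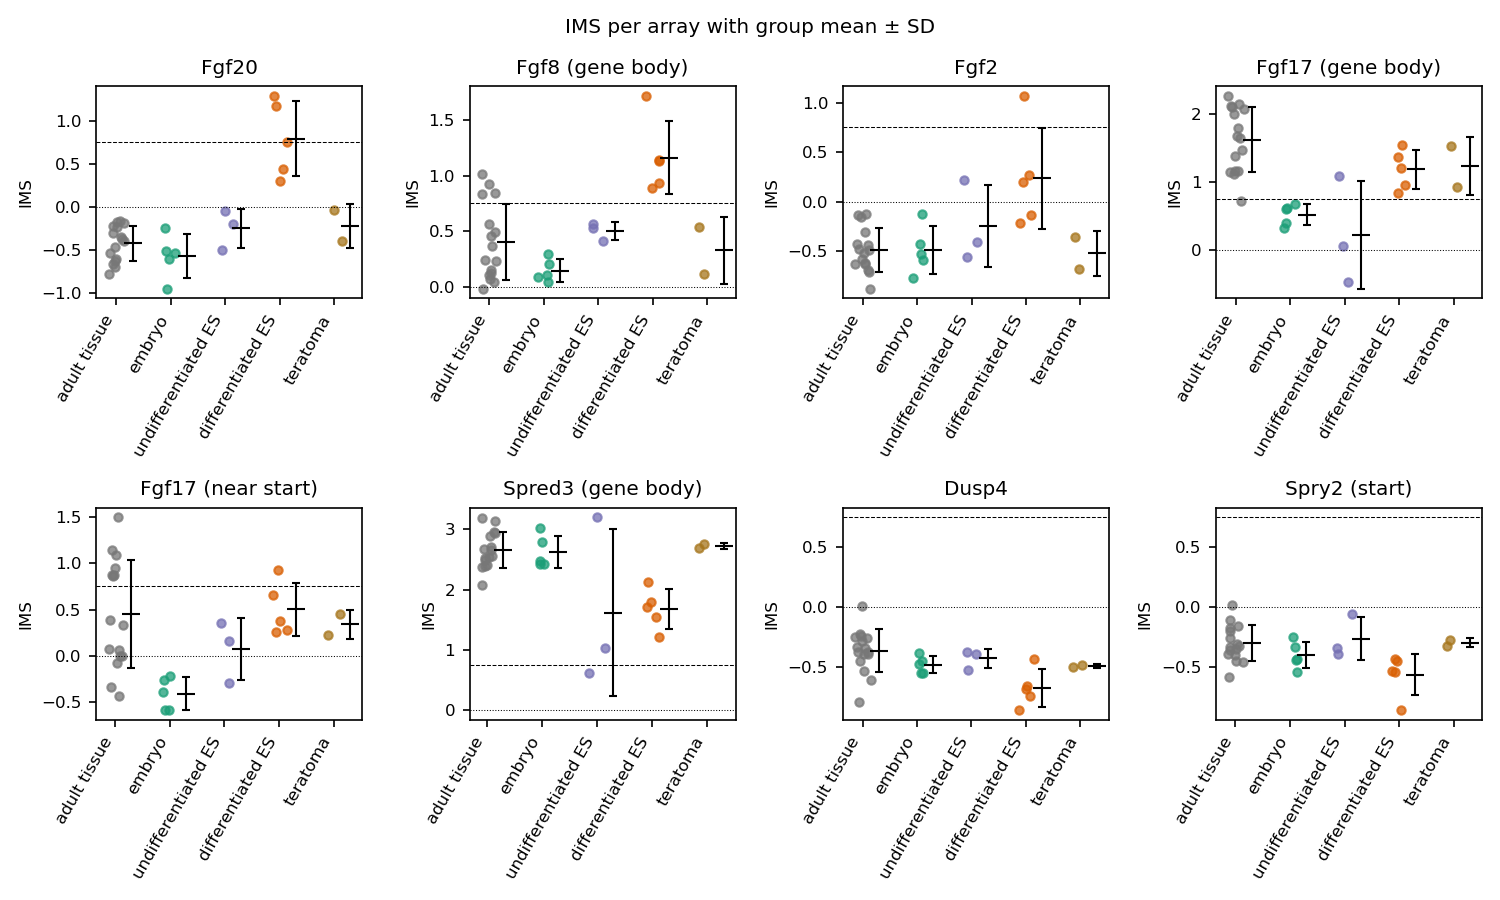
IMS on each array (points) of 8 islands in adult tissue (16 arrays), embryos (5), undifferentiated ES cells (3), differentiated ES cells (5) and teratomas (2), with the group mean ± SD in black, a dotted line at 0 and a dashed line at 0.75. Fgf20 in differentiated ES cells (0.30 to 1.29) lies above all other groups, and the gene-body island of Fgf17 in embryos (0.32 to 0.67) lies below all adult arrays.

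Embryos differed from adult tissue at 3 of the 40 islands (7.5%, against 8.64% of all islands), all of them ligands and all lower in embryos (3.47% of all islands were lower and 5.17% higher). The gene-body island of Fgf17 had 0.39, 0.60, 0.32, 0.61 and 0.67 from 8.5 to 12.5 days, below every adult array, which held for 1 of the 40 islands and for 1.29% of all islands. No island had all embryos above every adult array (1.31% of all islands). The difference was -1.11 ± 0.22 (limma adjusted p = 0.0013). The Fgf17 island that begins 8 bases after the start had -0.39, -0.59, -0.59, -0.26 and -0.22 at these ages, against -0.44 to 1.50 with a median of 0.36 in adult tissue. It differed by -0.86 ± 0.23 (limma adjusted p = 0.018), and the call was lost without the embryo of 9.5 or of 10.5 days (-0.82 in each case).

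Fgf3, a ligand of inner ear induction, had -0.70, -0.81, -0.70, -0.77 and -0.66 in embryos and -0.67 to -0.34 with a median of -0.50 in adult tissue. The difference was -0.23 ± 0.07 (limma adjusted p = 0.044). Of its 15 probes 3 are on the larger grid only, which no embryo array used, and with the shared probes alone the difference was -0.16 (adjusted p = 0.20). In the deposited table it was 0.04, and leaving out any embryo lost the call (-0.25 to -0.21). No slide held both embryos and adult tissue, and none of the 3 islands passed once slide or scan day was blocked.

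Against embryos, differentiated ES cells differed at 5 of the 40 islands (12.5%, against 21.1% of all islands), with 4 ligands higher (11.8% of all islands) and 1 inhibitor lower (9.29%). Fgf20 had -0.24, -0.60, -0.51, -0.95 and -0.53 in the embryos and was higher in differentiated cells by 1.36 ± 0.16 (limma adjusted p = 1.0e-06). Fgf8 had 0.29, 0.09, 0.20, 0.10 and 0.04 and was higher by 1.02 ± 0.18 (limma adjusted p = 2.2e-04). At both islands, at Fgf17 near its start and at Spred3 the 2 groups did not overlap. The same held for 2 islands that did not pass the test. These were the gene-body island of Fgf17 (0.83 to 1.55, against 0.32 to 0.67 in embryos) and Fgf3 (-0.64 to -0.11, against -0.81 to -0.66). Overlap of these groups was not counted over all islands.

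Fgf17 near its start was higher by 0.91 ± 0.29 (limma adjusted p = 0.024), Fgf2 by 0.72 ± 0.19 (limma adjusted p = 0.0061), and Spred3 was lower by 0.95, a difference of -0.95 ± 0.29 (limma adjusted p = 0.02). The call of Spred3 was lost without the embryo of 10.5 days (-0.85) or the mesoderm array (-0.83), and that of Fgf17 without the embryo of 9.5 or 10.5 days (0.87 in each case) or the second endoderm array (0.80). No slide held arrays of both groups. Blocking on the slide left none of the 5 islands past the threshold and moved Spred3 to 0.68, and blocking on the scan day left none either.

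Teratomas, tumours of ES cells grown in mice, were compared with adult tissue in a fit with all of these groups. With limma, 0 of the 40 islands passed (0.191% of all islands did, 0.176% higher and 0.0147% lower), 2 had an unadjusted p under 0.05 (5%, against 7.79% of all islands), and the methods' t-test gave 0 as well. Fgf20 was -0.40 and -0.04 in the 2 teratomas and Fgf8 0.11 and 0.54. Both lay within or close to the adult range and below every differentiated array. Spred3 was 2.69 and 2.76, inside the adult range. The islands with an unadjusted p under 0.05 were Fgf18 over its start (-0.41 ± 0.19) and Spry2 upstream (0.37 ± 0.18).

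Among the 8 adult tissues, limma's F test called 0 of the 40 islands (0.0808% of all islands), the ordinary F test 0 as well, and 1 island had an unadjusted p under 0.05 (2.5%, against 3.95% of all islands). This was Fgf17 near its start (F = 4.58, limma adjusted p = 0.93). Its IMS was 1.50 and 0.95 in spleen, 1.14 and 1.09 in kidney and 0.87 and 0.86 in colon. It was -0.08 and 0.00 in muscle, 0.00 and 0.06 in lung, and 0.33 and -0.44 in liver, while the arrays of brain, at -0.34 and 0.87, spanned most of that range. The islands next in order were Spry2 within the gene, highest in liver at 0.17 and 0.29, the gene-body island of Fgf17, from a mean of 1.15 in pancreas to 2.19 in colon, and Etv4, lowest in colon at -0.53 and -0.50. With 2 arrays per tissue none of these passed the correction.

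The pancreatic samples have 1 array each and no test, and their values describe those arrays. In the β cell line Min6, 9 of the 40 islands (22.5%) lay above every adult array, against 16.2% of all islands. These were 6 islands counted as ligands, the intracellular Fgf11 and Fgf12 among them, and 3 receptors. Fgf11, an intracellular relative that binds sodium channels and no receptor, had 1.88, against an adult maximum of -0.09. Fgf3 had 1.47 against a maximum of -0.34, Fgf4 1.44 against 0.17, Fgf8 within the gene 1.56 against 1.01, and Fgf12 0.97 against 0.20. Purified β cells had -0.07 for Fgf11, -0.80 for Fgf3, -0.35 for Fgf4, 0.57 for Fgf8 and 0.39 for Fgf12.

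The genes Fgf3, Fgf4 and Fgf15 are neighbours on chromosome 7 (the islands start at 144647299, 144670594 and 144705206 in the files). In Min6 the first 2 were high, and Fgf15, an endocrine ligand that acts on bile acid synthesis, had -0.54. Along Fgf3 all 12 probes that Min6 carried were above the adult mean, from 0.57 at position -776 from the start to 2.11 at position 220. The 7 probes of Fgf4 ran from 1.27 to 1.65 and the 6 of Fgf11 from 1.72 to 2.08. At all 3 islands every probe that Min6 carried was above the adult mean.

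In the α cell line αTC, 14 of the 40 islands (35%) lay above every adult array, against 19.9% of all islands. They included all 5 receptors: Fgfr4 at 1.19 (adult maximum 0.66), Fgfr3 at 0.92 (0.16), Fgfrl1 at 0.31 (0.15), Fgfr1 at 0.09 (0.07) and Fgfr2 at -0.15 (-0.28). Of these only Fgfr3 and Fgfr4 exceeded 0.75. In Min6, Fgfr3 had 0.83, Fgfrl1 0.24 and Fgfr1 0.12, above every adult array, while Fgfr2 had -0.80, below them all. Ligands high in αTC were Fgf18 over its start (1.18, adult maximum -0.12), Fgf8 within the gene (1.07), Fgf11 (0.86) and Fgf10 (0.84), whereas Fgf3 and Fgf4 had -0.45 and -0.27.

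Fgfr3, a receptor that restrains bone growth, has a long island along which the adult mean itself changed. In Min6 its probes had -0.15 at 376 bases after the start, -0.19 at 578 bases and 2.37 at 2220 bases, and in αTC 0.63, 0.90 and 1.73. Adult means at these probes were -0.48, -0.32 and 0.71.

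**Figure D4:**
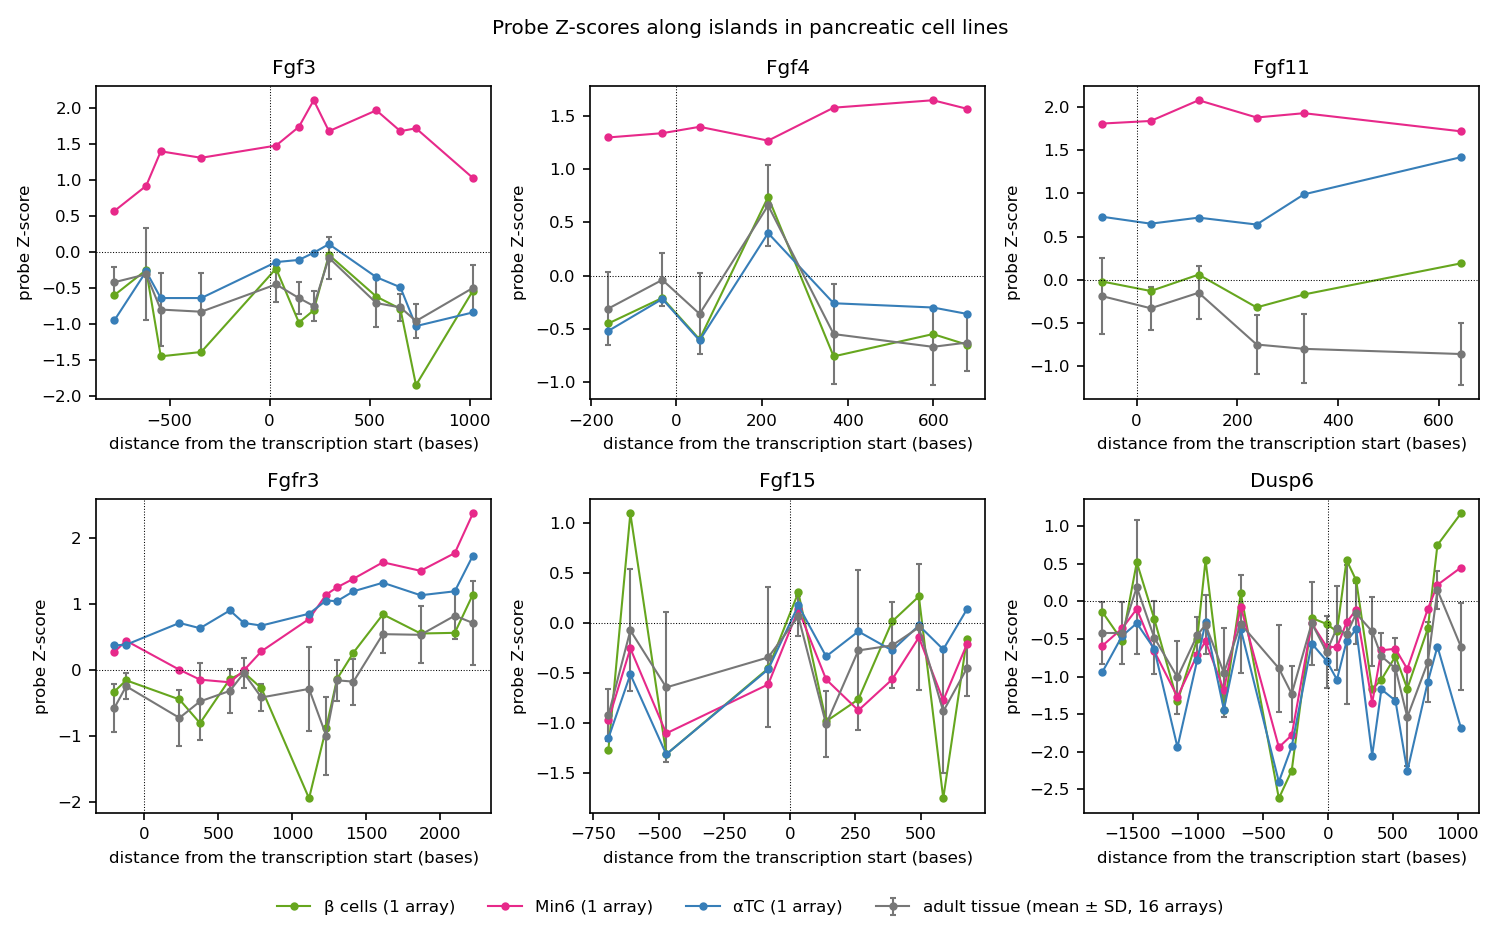
Probe Z-scores (y axis) against distance from the transcription start in bases (x axis) along 6 islands, for adult tissue (grey, mean ± SD of 16 arrays) and for β cells, Min6 and αTC (1 array each). Min6 lies above the adult bars along all of Fgf3, Fgf4 and Fgf11, αTC does so along Fgf11, and along Fgfr3 both reach their highest values, 2.37 and 1.73, at the last probe, where the adult mean is 0.71.

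In αTC 6 of the 40 islands (15%) lay below every adult array, against 34.9% of all islands. These were 6 of the 14 inhibitor islands, with 0 of 18 ligand, 0 of 5 receptor and 0 of 3 Etv islands. They were Dusp5, Dusp6, Spred3, Spry2 over its start, and Spred2 over its start and within the gene. Spry1 was the 1 inhibitor island above every adult array. In Min6 10 islands lay below every adult array (25%, against 26.0% of all islands), 6 of them among the 14 inhibitor islands. Spred3 was 2.28 in β cells, 2.14 in Min6 and 1.73 in αTC. In β cells 6 islands (15%) were above every adult array, against 11.6% of all islands, and 5 (12.5%) below, against 10.0%. The counts above 0.75 were 3 of the 40 in β cells, 9 in Min6 and 9 in αTC (12.7%, 19.5% and 23.1% of all islands), compared with 2 to 6 on adult arrays.

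Genes around the pathway were read from lists of other components, between differentiated ES cells and adult tissue. Of 14 islands of co-receptors and binding proteins 2 passed, both higher: Klotho (Kl), the co-receptor of Fgf23, by 0.66 ± 0.19 (limma adjusted p = 0.011), and Il17rd, an inhibitor also called Sef, by 0.43 ± 0.11 (limma adjusted p = 0.0052). The median difference of that list was -0.06. Of 19 islands of heparan sulfate enzymes 1 was higher (Hs3st2, 0.41 ± 0.13) and 1 lower (Hs6st1, -0.58 ± 0.20), with a median of -0.04. Of 20 islands of adaptors and Ras to ERK kinases 1 was lower (Rps6ka2, -0.39 ± 0.13), with a median of -0.03.

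Of 7 islands of other MAP kinase phosphatases 1 was higher. It belonged to Dusp2, a nuclear phosphatase known from lymphocytes, which had -0.23 ± 0.18 in adult tissue and 0.42 ± 0.38 in differentiated cells, a difference of 0.66 ± 0.12 (limma adjusted p = 1.2e-04). Of 32 islands of other receptor tyrosine kinases 3 were higher and 2 lower, among them Ror2, a Wnt5a receptor (-0.71 ± 0.19), the insulin receptor Insr (0.42 ± 0.14) and Flt3 of blood progenitors (0.38 ± 0.08). The share that passed was 14.3%, 10.5%, 5%, 14.3% and 15.6% for these lists in turn, against 23.2% of all islands.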

How the data were processed

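Bound (Cy5) and input (Cy3) DNA were hybridised to Agilent CpG island arrays with grids of 2 sizes, 97651 probes (14 arrays) and 88737 probes (20 arrays). The larger size was used for 10 adult arrays, 2 of undifferentiated and 2 of differentiated ES cells. Embryos, teratomas, β cells, Min6 and αTC were on the smaller size only. Grid size thus varied with the group, and it was not fitted as a block. The authors extracted spot and background intensity with Feature Extraction software, which subtracted background, normalized the dyes linearly and gave the log10 ratio of bound over input per probe in the deposited scanner files. The authors also deposited a processed table with 1 standardised score per probe and array, computed within classes of melting temperature per the methods, and it served as an alternative. The aligner and genome build behind the probe positions are not given in the sources used here.

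Here each array's log10 ratios were standardised to Z over its probes, control and outlier spots left out, without classes of melting temperature. The IMS is the mean of at least 3 probes, and member islands have 3 to 25 (median 6.5). Gene names are those of the files. Samples were grouped by their labels. IMS of all 13614 islands were fitted with limma 3.58.1 (lmFit, eBayes) in R 4.3.3, with Benjamini-Hochberg adjustment over all islands and a threshold of 0.05; the fit was tested on simulated data. Python 3.11.15, numpy 2.4.6 and pandas 2.3.3 were used. The tissue arrays were not paired by replicate number in the main fit. Deviations of the first replicate from its tissue mean correlated at -0.253 to 0.629 between tissues (28 pairs).

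Median input intensity was 3.07-fold to 7.34-fold of background by array, and in 62.4% to 99.9% of probes it was well above background. Median bound intensity was lower, at 1.54-fold to 5.59-fold of background. The number of arrays limits the precision. Named in full are the islands past the threshold against adult tissue, up to 4 per other comparison (5 were described for differentiated cells against embryos, of which Fgf2 falls outside the rule), the 4 tissue islands with the smallest p, all receptors, and up to 3 genes per further list. Members and lists were chosen with earlier results of these data known. Alternatives covered the standardisation, scale, background correction, value source, dim probes, island summary and probes, slide, scan day, test and arrays in the fit. Arrays were also left out singly, from the groups compared other than adult tissue. Adult arrays were left out only in the comparison of the 8 tissues, so dependence of the other comparisons on single adult arrays was not tested.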

Additional observations from a re-analysis of the deposited data

Results flagged for a closer look

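Over all islands the median IMS was -0.11 in the embryo of 8.5 days and -0.23 to -0.16 in the other embryos. Among 80 sets of 5 arrays (40 islands in embryos and in differentiated ES cells), the array farthest from the others stood apart by Dixon's criterion in 7. Chance gives about 1 in 20 sets if the sets are independent, but these share their arrays. No such count was made over all islands, and whether the array as a whole differs was not tested. The embryo of 8.5 days stood apart 4 times: Dusp6 at -0.94 (the other embryos -0.56 to -0.43), Dusp7 at -0.23 (0.10 to 0.18), Spred1 at -0.60 (-0.24 to -0.11) and Etv4 at 0.29 (-0.39 to -0.29). In differentiated cells the mesoderm array stood apart at Dusp6 with -0.82 (-0.55 to -0.47), and the first endoderm array at Spry2 over its start with -0.86 (-0.54 to -0.43) and at Etv5 with -0.84 (-0.12 to 0.06).

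At 7 islands every differentiated array moved one way from EB5 and the opposite way from TT2, against 10.2% of all islands; the difference was not tested. The mean change from EB5 was 1.07 at Fgf2 (-0.40 from TT2), 0.28 at Fgf18 over its start (-0.32), 0.22 at Fgf3 (-0.03), 0.24 at Fgfr3 (-0.20), -0.18 at Dusp6 (0.13), -0.34 at Spry4 (0.28) and -0.44 at Etv5 (0.44). Each line has 1 undifferentiated array, and the retinoic acid array was set against TT2, as labelled.

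A further signal lay in islands that entered no comparison. Over the start of Fgf8, read from its 2 shared probes, Min6 had 1.17 and αTC 1.31, above the highest adult array at 0.87, whereas the differentiated ES cells ran from -0.63 to 0.24. An island beside Fgf11, of whose 7 probes 1 carries that gene name, had 1.06 in Min6, 1.15 in αTC, 1.03 in embryoid bodies and 0.92 and 0.32 in endoderm, above the highest adult array at 0.14, whereas retinoic acid treated cells had -0.14 and mesoderm 0.08, within the adult range.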

How the results depend on the processing

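Differences of single named islands were re-computed 390 times. These include the 5 receptors, with 18 alternatives each, which passed in no fit, so there a kept side of the threshold is no kept call. Of the 390, 312 kept their direction and their side of the threshold, 66 kept the direction and missed the threshold, and 12 changed sign. Of these, 3 had passed the threshold: Spry2 over its start against adult tissue (0.03 with normexp correction on median signals, an alternative chosen after seeing the data), Fgf3 in embryos (0.04 in the deposited table) and Spred3 in differentiated cells against embryos (0.68 with the slide as a block). The other 9 were receptor differences near 0 that passed under no setting: Fgfr4 (0.01) had -0.19 with median and MAD, -0.16 with median-centred log2 ratios, -0.05 and -0.01 when slide or scan day was blocked, and -0.01 to 0.04 with 1 array left out, and Fgfr2 (-0.05) had 0.03 with normexp and -0.16 to 0.01 with 1 array left out. The cause was not tested. Dusp4 against adult tissue passed under all 18 alternatives (-0.49 to -0.26). The counts of islands past the threshold were as follows. The share of all islands that passed in each alternative fit was not set beside them, so a change cannot be read as particular to these islands. For differentiated cells against adult tissue (7) there were 2 with at least 5 probes per island, which left 26 islands to test, 3 with the deposited table, which left 20, 4 with the slide as a block, and 6 to 11 with 1 array left out. For undifferentiated cells against adult tissue (1) there were 0 with at least 5 probes, median and MAD, median-centred log2 ratios, normexp, the scan day as a block or the methods' t-test, 2 with the median of probes, probes used on every array or the slide as a block, 3 with the deposited table, and 0 to 3 with 1 array left out. For embryos (3) there were 0 with the deposited table, input well above background, normexp, the scan day or the slide, and 1 to 2 with 1 array left out. For differentiated against undifferentiated cells (1) there were 0 with at least 5 probes, these groups only or the methods' t-test, 2 with input well above background or the slide, 5 with the deposited table, and 1 to 3 with 1 array left out. For differentiated cells against embryos (5) there was 1 with at least 5 probes, 3 with the deposited table, median and MAD or normexp, 0 with the scan day or the slide, and 3 to 8 with 1 array left out. Teratomas and the 8 tissues gave 0 throughout; there the slide and the scan day could not be fitted as blocks. With the replicate number of the tissues as a block the count was 0 as well. Islands below 0 on every adult array numbered 11, but 25 with a limit of 0.25 and 3 with -0.25. Normexp on mean signals was not run. The median difference of all islands moved most with input well above background, by -0.10 for differentiated against undifferentiated cells. Single arrays per embryonic age, protocol and cell line, islands of 3 probes and signals from 1.54-fold to a few times background limit what these data can resolve.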
